A study of Homo sapiens with 6 samples.

Results

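The genes described here encode the proteins that carry fatty acids into mitochondria and peroxisomes and break them down there. The deposited table held all 34 genes of this list among its 58037 gene rows, chosen by gene name alone: 5 of the carnitine shuttle, 14 of the mitochondrial spiral, 3 of electron transfer and 12 of peroxisomal steps. HepaRG, a line from a human liver tumour, can be grown into cultures that hold both hepatocyte-like and biliary-like cells. Cells of passages 15 to 18 spent 14 days in growth phase, 14 days in differentiation and 5 days in basal medium with insulin and hydrocortisone hemisuccinate. The fatty acid group (n = 3) then received palmitate and oleate, 1 part to 2 parts, at 0.5 mM for 72 h, conjugated to bovine serum albumin at 0.02%, and the control group (n = 3) received medium with 0.02% albumin for the same time. All samples come from this single line, and the labels do not say whether replicates were separate cultures, so the p-values speak only of the spread among these 6 libraries, possibly a technical one. The comparison asks how the transcripts of fatty acid oxidation stood after the cells had been loaded with its substrates.

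Long-chain fatty acids enter mitochondria as carnitine esters. CPT1A makes the ester at the outer membrane, the carrier SLC25A20 moves it inward, and CPT2 turns it back into the acyl-CoA. Each turn of the spiral then takes an acyl-CoA dehydrogenase, an enoyl-CoA hydratase, a hydroxyacyl-CoA dehydrogenase and a thiolase, and the electrons pass through ETFA, ETFB and ETFDH to the respiratory chain. Peroxisomes shorten very long, branched and dicarboxylic acids with enzymes of their own. In liver many genes of both routes are known targets of the fatty acid receptor PPAR-alpha.

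With fatty acid, 7 of the 34 genes rose, 5 fell and 22 did not pass the threshold. The genes that rose were HADHA, HADHB, CPT1A, ABCD2, HSD17B4, PEX11A and ETFA. Those that fell were PECR, SCP2, EHHADH, ECHS1 and ECI2. Every change was under 2-fold on the log2 scale used, with log2 fold changes from -0.78 to 0.57. All 34 genes lay above the expression minimum of a mean of 0.5 FPKM (fragments per kilobase of gene, scaled to the assigned reads of the library) and were tested with limma on log2(FPKM + 0.5) over all 14661 such genes. A gene passed where its Benjamini-Hochberg adjusted p was below 0.05. Log2 fold changes are fatty acid minus control with their SE, and on this scale they understate the change of low genes. The 12 genes called are 35.3% of the list, beside 12.9% of all genes tested, 8.22% higher and 4.68% lower. Of the genes whose mean reached 10 FPKM, 24.1% were called, and among the 25 members of that level 10 were. The median log2 fold change was -0.06 over the list and 0.04 over all genes. The groups did not overlap for 22 members, 9 higher and 13 lower with fatty acid, against 37.1% of all genes tested.

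The libraries held 6331372 to 11821423 assigned reads in the control group and 8364570 to 15941353 in the fatty acid group. Each member had at least 52 reads in every library. Transcripts of the mitochondrial genome took 13.63 ± 1.37% of the reads in the control and 10.31 ± 1.43% in the fatty acid libraries (SD, n = 3), and FPKM shares 1 total among all genes. Rescaling to TPM moved the all-gene median to 0.18 on the log2 scale and gave 8 members higher and 3 lower, 72.7% of the calls being higher in place of 58.3%. With scaling by the median of ratios 6 were higher and 9 lower, with quantile normalization 5 and 8, and with nuclear genes as the total 5 and 9. No member called in either direction changed sign under any of these scalings. Of 24 hepatocyte markers, 16 fell and 5 rose, and their summed level ran from 22095 to 22751 FPKM in the control and from 18771 to 19198 FPKM in the fatty acid libraries. The lower sum rested on ALB (albumin), at 11688 to 12320 FPKM in the control and 6826 to 7439 FPKM in the fatty acid libraries. Without ALB the other 23 summed to 10028 to 10430 FPKM in the control and 11754 to 11945 FPKM in the fatty acid libraries, with SERPINA1, FGA, FGB, FGG and HP the 5 that rose. Of 15 biliary markers 9 were tested and 1 fell, KRT19 stood at 342.7 and 316.0 FPKM, and EPCAM was listed at 0 in every library. The summed biliary level was 469 to 543 FPKM in the control and 448 to 464 FPKM in the fatty acid libraries. Of 12 mesenchymal markers 8 were tested and 1 rose, with sums of 102 to 112 and 119 to 127 FPKM and THY1 listed at 0. The higher sum rested on the gene that rose, LUM, at 41.6 to 48.8 FPKM in the control and 58.8 to 62.5 FPKM in the fatty acid libraries. Of 12 immune and endothelial markers 3 were tested and 1 fell, with sums of 51.5 to 56.1 and 40.3 to 41.6 FPKM and CD3E and CDH5 listed at 0. The gene that fell, KDR, made up most of that sum, and the other 11 summed to 11.2 to 15.3 FPKM in the control and 15.0 to 16.1 FPKM in the fatty acid libraries. The part of these shifts in the changes below was not tested, and in bulk RNA fewer cells of a type and less RNA per cell cannot be told apart.

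**Figure D1:**
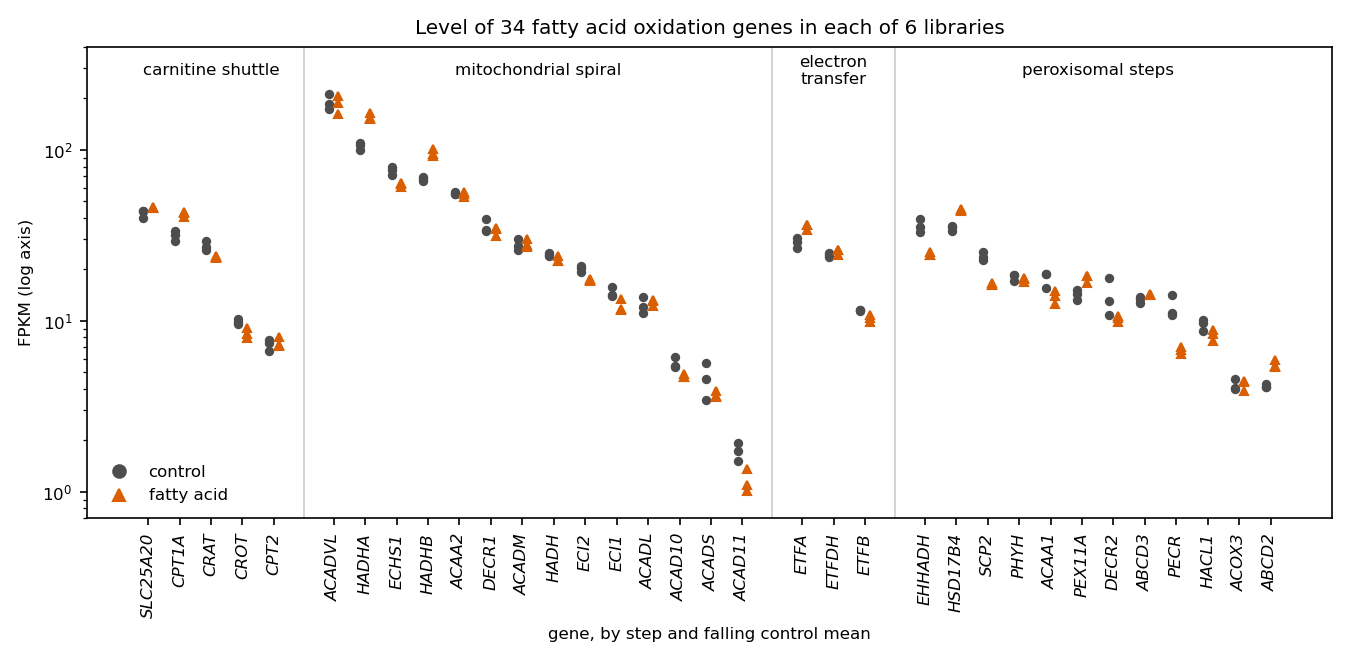
Level of each gene in FPKM (log axis) in the 3 control (circles) and 3 fatty acid libraries (triangles), by step and falling control mean. ACADVL, at 162 to 212 FPKM, is the most abundant member and ACAD11, at 1.02 to 1.93 FPKM, the least.

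In the carnitine shuttle the entry enzyme rose and the rest of the mitochondrial route did not pass the threshold. CPT1A (chromosome 11, 68754620 to 68844410), the malonyl-CoA-sensitive enzyme that controls entry, stood at 33.8, 31.8 and 29.3 FPKM in control replicates 1, 2 and 3 and at 42.6, 43.2 and 40.6 FPKM in the fatty acid replicates. The groups did not overlap, and the means were 31.6 ± 2.25 and 42.1 ± 1.34 FPKM (SD, n = 3), a log2 fold change of 0.41 ± 0.06 (limma adjusted p = 0.00901). SLC25A20, the carnitine-acylcarnitine carrier, had 40.02, 43.7 and 43.7 FPKM in the control and 46.5, 45.9 and 46.0 FPKM in the fatty acid libraries. It lay slightly higher in every fatty acid library, with a log2 fold change of 0.12 ± 0.05 and a 95% interval of -0.005 to 0.241 (limma adjusted p = 0.18, and 0.0366 after rescaling to TPM). CPT2, the inner membrane enzyme, had 7.28 ± 0.520 and 7.45 ± 0.500 FPKM (SD, n = 3), and its interval ran from -0.15 to 0.22. The acyltransferases CRAT, which makes acetylcarnitine, and CROT, which acts on medium-chain acyl groups in peroxisomes, had log2 fold changes of -0.21 ± 0.06 and -0.22 ± 0.07 with groups that did not overlap (limma adjusted p = 0.0557 and 0.0769). CPT1B, the muscle form of the entry enzyme, was close to the expression minimum, at 0.322 to 0.843 FPKM over the 6 libraries. The call of CPT1A was lost without fatty acid replicate 1 or 2 (limma adjusted p = 0.0547 and 0.0532). CRAT passed as lower without control replicate 2 (limma adjusted p = 0.0462), with a minimum of 2 FPKM (0.041) and with voom on the recovered reads (0.0288). It also passed with median-of-ratios, quantile and nuclear-gene scaling (0.0262, 0.0244 and 0.0259). CROT passed as lower with median-of-ratios and nuclear-gene scaling (0.0424 and 0.0369).

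HADHA and HADHB, which encode the alpha and beta subunits of the mitochondrial trifunctional protein, had the largest rises of the list. This complex carries out the last 3 reactions of the spiral on long-chain acyl-CoAs. The genes lie head to head on chromosome 2 (HADHA at 26190635 to 26244726 on the minus strand, HADHB at 26243170 to 26290468 on the plus strand). In RefSeq (GRCh38.p14) their start sites are 307 bases apart, so that the windows from 250 bases before to 50 bases after each start hold 194 bases in common (chr2:26244689-26244882). Both windows are shown because 1 stretch of sequence lies before both genes. Each reads 5′ to 3′ on its own gene's strand, with the common bases in capitals, so that the capitals of one are the reverse complement of the other.
HADHA, minus strand, chr2:26244583-26244882: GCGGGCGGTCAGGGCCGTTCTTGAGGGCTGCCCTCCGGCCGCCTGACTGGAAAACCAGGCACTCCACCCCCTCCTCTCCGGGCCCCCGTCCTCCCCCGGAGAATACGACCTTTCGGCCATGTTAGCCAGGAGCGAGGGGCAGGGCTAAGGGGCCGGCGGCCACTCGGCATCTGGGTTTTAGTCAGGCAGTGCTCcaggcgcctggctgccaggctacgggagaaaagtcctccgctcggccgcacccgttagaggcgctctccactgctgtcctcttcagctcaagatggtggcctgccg
HADHB, plus strand, chr2:26244689-26244988: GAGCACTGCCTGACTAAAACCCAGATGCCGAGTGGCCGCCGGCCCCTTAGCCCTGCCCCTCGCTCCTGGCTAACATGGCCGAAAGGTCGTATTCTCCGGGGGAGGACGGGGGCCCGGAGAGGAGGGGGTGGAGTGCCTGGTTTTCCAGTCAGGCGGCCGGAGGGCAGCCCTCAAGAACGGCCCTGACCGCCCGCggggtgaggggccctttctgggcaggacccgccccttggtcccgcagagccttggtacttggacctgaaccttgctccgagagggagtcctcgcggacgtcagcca

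HADHA was at 109, 106 and 100.0 FPKM in control replicates 1, 2 and 3 and at 153, 164 and 152 FPKM in the fatty acid replicates. HADHB was at 67.4, 69.6 and 65.6 FPKM in the control and at 95.03, 101 and 92.8 FPKM in the fatty acid libraries. In both genes every fatty acid library lay above every control library, and replicate 2 was the highest of the fatty acid group. The log2 fold changes were 0.570 ± 0.055 for HADHA (limma adjusted p = 0.00107) and 0.511 ± 0.053 for HADHB (limma adjusted p = 0.00167), and both were called in all 17 alternatives. The ratio of HADHA to HADHB FPKM within a library, which a single scaling factor per library leaves unaltered, was 1.62, 1.53 and 1.53 in the control and 1.61, 1.61 and 1.64 in the fatty acid libraries. The ratios of the groups overlapped. The gene models overlap over 1557 bases on opposite strands, and no source used here gives the strand setting of the counting, so reads from that stretch may not be separated.

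No acyl-CoA dehydrogenase, the enzymes of the opening step, passed the threshold. ACADVL, which takes long chains, was at 212, 174 and 187 FPKM in the control and at 189, 162 and 206 FPKM in the fatty acid libraries, with overlapping groups. Its 95% interval of the log2 fold change was -0.28 to 0.20, so that a change as large as that of HADHA lay outside it. ACADL and ACADM, for long and medium chains, had intervals of -0.14 to 0.26 and -0.15 to 0.19, and ACADS, for short chains, had -0.60 to 0.11 at only 58 reads in its shallowest library. ACAD10 and ACAD11, which act on less common acyl-CoAs, had log2 fold changes of -0.225 ± 0.075 and -0.426 ± 0.131 without overlap of the groups (limma adjusted p = 0.0902 and 0.0731). Both passed as lower with voom on the recovered reads (adjusted p = 0.0412 and 0.0253).

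Of the later steps, as the list groups them, the short-chain hydratase and an isomerase were lower. ECHS1 (chromosome 10, 133362480 to 133373689), which hydrates short-chain enoyl-CoAs and also serves valine breakdown, was at 79.2, 71.1 and 76.3 FPKM in the control and at 60.5, 63.0 and 63.7 FPKM with fatty acid. It fell without overlap of the groups by 0.27 ± 0.06 on the log2 scale (limma adjusted p = 0.0224). ECI2 (chromosome 6, 4115689 to 4135597), an isomerase that repositions double bonds of unsaturated acyl chains such as that of oleate, was at 21.0, 20.5 and 19.2 FPKM in the control and at 17.1, 17.6 and 17.5 FPKM with fatty acid. It fell by 0.213 ± 0.055 on the log2 scale, just past the threshold (limma adjusted p = 0.0458). ECI1, the mitochondrial isomerase for the same task, had a log2 fold change of -0.25 ± 0.08 (limma adjusted p = 0.0809) with groups that did not overlap either. DECR1, the dienoyl-CoA reductase that handles further double bonds, had -0.085 ± 0.078, HADH, the short-chain hydroxyacyl-CoA dehydrogenase, -0.09 ± 0.05, and the thiolase ACAA2 -0.02 ± 0.05, each with overlapping groups. ACAA2 stood at 55.8 ± 0.945 and 54.9 ± 2.17 FPKM (SD, n = 3). The calls of ECHS1 and ECI2 were lost after rescaling to TPM (adjusted p = 0.218 and 0.513) and without any 1 fatty acid library (0.0589 to 0.107 for ECHS1 and 0.106 to 0.166 for ECI2). Without control replicate 3 ECHS1 had an adjusted p of 0.0596, and without control replicate 1, 2 or 3 ECI2 had 0.069, 0.0868 and 0.0513. Both were also lost without the intensity trend (0.0654 and 0.0936), and ECI2 with no filter (0.0644) and with the replicate number as a block (0.0771). ECI1, in contrast, passed as lower with median-of-ratios, quantile and nuclear-gene scaling (limma adjusted p = 0.0426, 0.049 and 0.0385).

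Of the subunits of the electron transfer flavoprotein, alpha rose and beta did not pass the threshold. ETFA (chromosome 15, 76215355 to 76311472), the alpha subunit, was at 29.0, 26.8 and 30.7 FPKM in the control and at 34.1, 36.6 and 36.5 FPKM with fatty acid, a rise of 0.306 ± 0.065 on the log2 scale (limma adjusted p = 0.0251). ETFB, the beta subunit with which it forms a dimer, was at 11.6, 11.4 and 11.7 FPKM in the control and at 9.91, 10.9 and 10.4 FPKM with fatty acid, all 3 below the control libraries (log2 fold change -0.14 ± 0.06, limma adjusted p = 0.146). The ratio of ETFA to ETFB within a library went from 2.51, 2.36 and 2.63 in the control to 3.44, 3.37 and 3.51 with fatty acid. This pair was chosen after its values had been seen, so the ratio is a description with no test. ETFDH, the oxidoreductase that passes the electrons on to ubiquinone, was at 23.6, 24.3 and 25.0 FPKM in the control and at 25.9, 26.0 and 24.3 FPKM with fatty acid (log2 fold change 0.06 ± 0.05, interval -0.06 to 0.19). The call of ETFA was lost without fatty acid replicate 1, 2 or 3 (adjusted p = 0.071, 0.108 and 0.0773), with no filter (0.0531), with quantile normalization (0.0574), with nuclear genes as the total (0.0573) and without the intensity trend (0.0635).

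**Figure D2:**
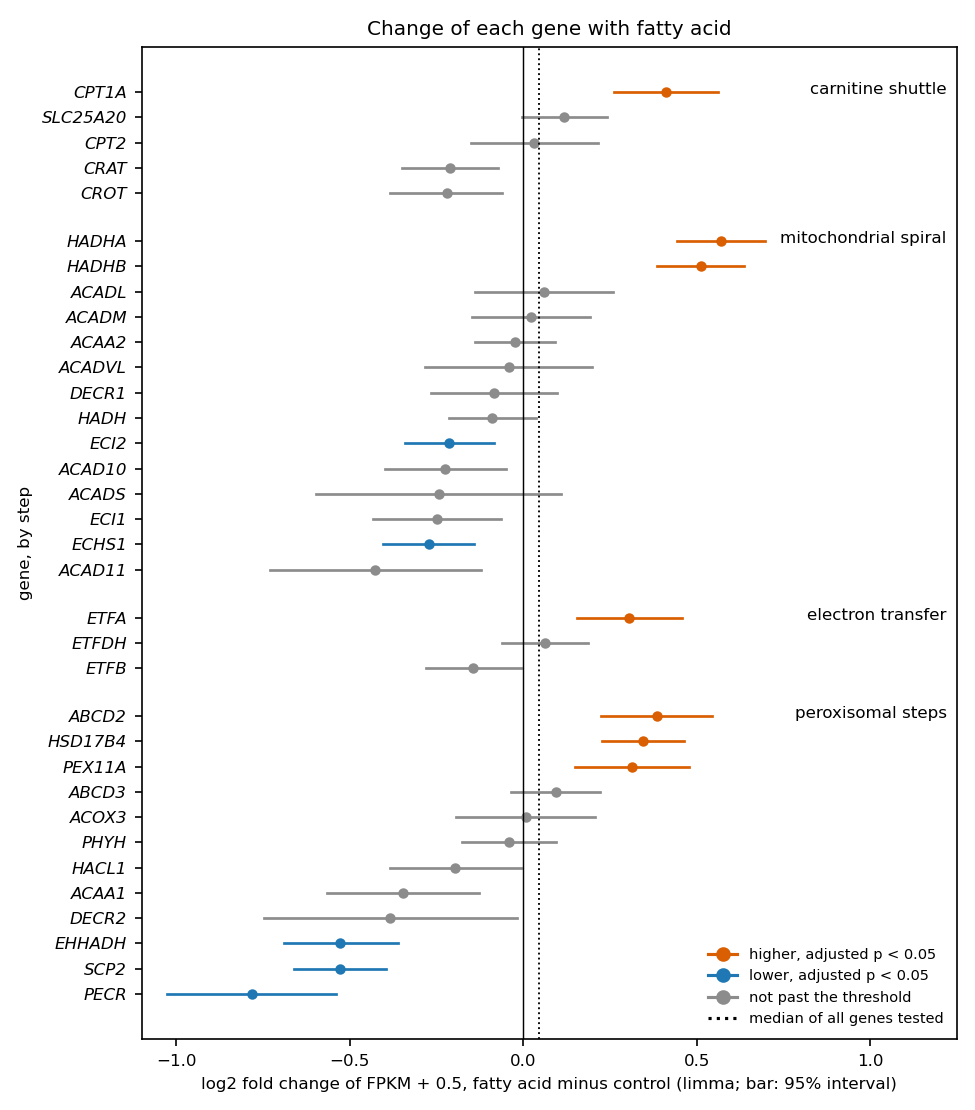
Log2 fold change of each gene (fatty acid minus control, limma on log2(FPKM + 0.5)), with its 95% interval as a bar, by step. The dotted line is the median of all genes tested, 0.04, and the values run from -0.78 for PECR to 0.57 for HADHA.

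Among the 12 peroxisomal genes 3 rose and 3 fell, and the 2 multifunctional enzymes went in opposite directions. HSD17B4 (chromosome 5, 119452443 to 119637199), the D-bifunctional protein that hydrates and dehydrogenates very long, branched and bile acid precursor chains, was at 33.4, 35.7 and 36.1 FPKM in the control and at 44.1, 44.6 and 45.2 FPKM with fatty acid. Its log2 fold change was 0.34 ± 0.05 (limma adjusted p = 0.00719). EHHADH (chromosome 3, 185190624 to 185281990), the L-bifunctional protein, acts on dicarboxylic acids and is a known PPAR-alpha target. It was at 32.9, 35.4 and 39.2 FPKM in the control and at 24.4, 25.4 and 24.3 FPKM with fatty acid, a fall of 0.53 ± 0.07 on the log2 scale (limma adjusted p = 0.00504). The ratio of EHHADH to HSD17B4 FPKM was 0.985, 0.993 and 1.09 in the control libraries and 0.553, 0.570 and 0.537 with fatty acid. Both transcripts were thus at about the same level per length in control cells, and HSD17B4 was the higher in every fatty acid library. This pair, like HADHA and HADHB, was chosen for a ratio after its values had been seen, so no test is given. EHHADH and HSD17B4 were both called in all 17 alternatives.

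SCP2 (chromosome 1, 52927229 to 53051703) encodes a peroxisomal thiolase for branched chains and the sterol carrier protein. It was at 25.2, 22.7 and 23.8 FPKM in the control and at 16.2, 16.2 and 16.7 FPKM with fatty acid, a fall of 0.53 ± 0.06 on the log2 scale (limma adjusted p = 0.00194). PECR (chromosome 2, 215996329 to 216082955), a peroxisomal enoyl-CoA reductase that works in the direction of chain elongation and not of breakdown, had the largest fall of the list. It was at 14.2, 10.9 and 11.2 FPKM in the control and at 6.43, 6.81 and 7.06 FPKM with fatty acid, with control replicate 1 apart from the other two (log2 fold change -0.78 ± 0.10, limma adjusted p = 0.00495). The groups did not overlap in SCP2 or PECR, and both genes were called in all 17 alternatives. ACAA1, the thiolase of straight chains, had 18.8, 15.6 and 18.7 FPKM in the control and 12.5, 14.1 and 14.9 FPKM with fatty acid, and it narrowly missed the threshold (log2 fold change -0.347 ± 0.095, limma adjusted p = 0.0527). It passed without control replicate 2 (0.0295), with voom on the recovered reads (0.00532) and with a minimum of 2 FPKM (0.0332). With median-of-ratios, quantile and nuclear-gene scaling ACAA1 passed too (limma adjusted p = 0.0427, 0.0435 and 0.0442). DECR2, the peroxisomal dienoyl-CoA reductase, had 17.8, 10.9 and 13.1 FPKM in the control and 10.4, 9.88 and 10.7 FPKM with fatty acid, a wide control spread (limma adjusted p = 0.149). It passed as lower without control replicate 2 (0.046) and with voom on the recovered reads (0.0242).

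Among genes of the peroxisomal membrane, ABCD2 and PEX11A rose. ABCD2 (chromosome 12, 39550033 to 39619751), an importer of very long-chain acyl-CoAs, was at 4.10, 4.13 and 4.26 FPKM in the control and at 5.90, 5.47 and 5.38 FPKM with fatty acid (log2 fold change 0.38 ± 0.07, limma adjusted p = 0.0146). PEX11A (chromosome 15, 89677764 to 89690783), which takes part in peroxisome division, was at 13.2, 14.3 and 15.1 FPKM in the control and at 16.7, 18.4 and 18.2 FPKM with fatty acid (0.31 ± 0.07, limma adjusted p = 0.0307). In both genes the groups did not overlap. PEX11A overlaps PLIN1, a lipid droplet coat gene on the same strand, over 1664 bases of the gene models, and PLIN1 itself rose from 3.61 ± 0.479 to 5.91 ± 0.0990 FPKM (SD, n = 3; limma adjusted p = 0.00785). Whether reads of PLIN1 add to PEX11A was not tested. ABCD3, the importer of branched and dicarboxylic acids, had a log2 fold change of 0.093 ± 0.055, ACOX3, an oxidase of branched chains, 0.01 ± 0.09, and the alpha-oxidation enzymes PHYH and HACL1 -0.04 ± 0.06 and -0.20 ± 0.08. None of these 4 passed the threshold, and HACL1 had the smallest limma adjusted p of them, 0.15. The call of ABCD2 was lost without fatty acid replicate 1 or 2 (0.078 and 0.0647). That of PEX11A was lost without control replicate 2 (0.0557), with fatty acid replicate 1, 2 or 3 left out (0.0701, 0.123 and 0.089), with no filter (0.0623), with median-of-ratios, quantile or nuclear-gene scaling (0.0651, 0.0741 and 0.0731) and without the trend (0.0658).

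**Figure D3:**
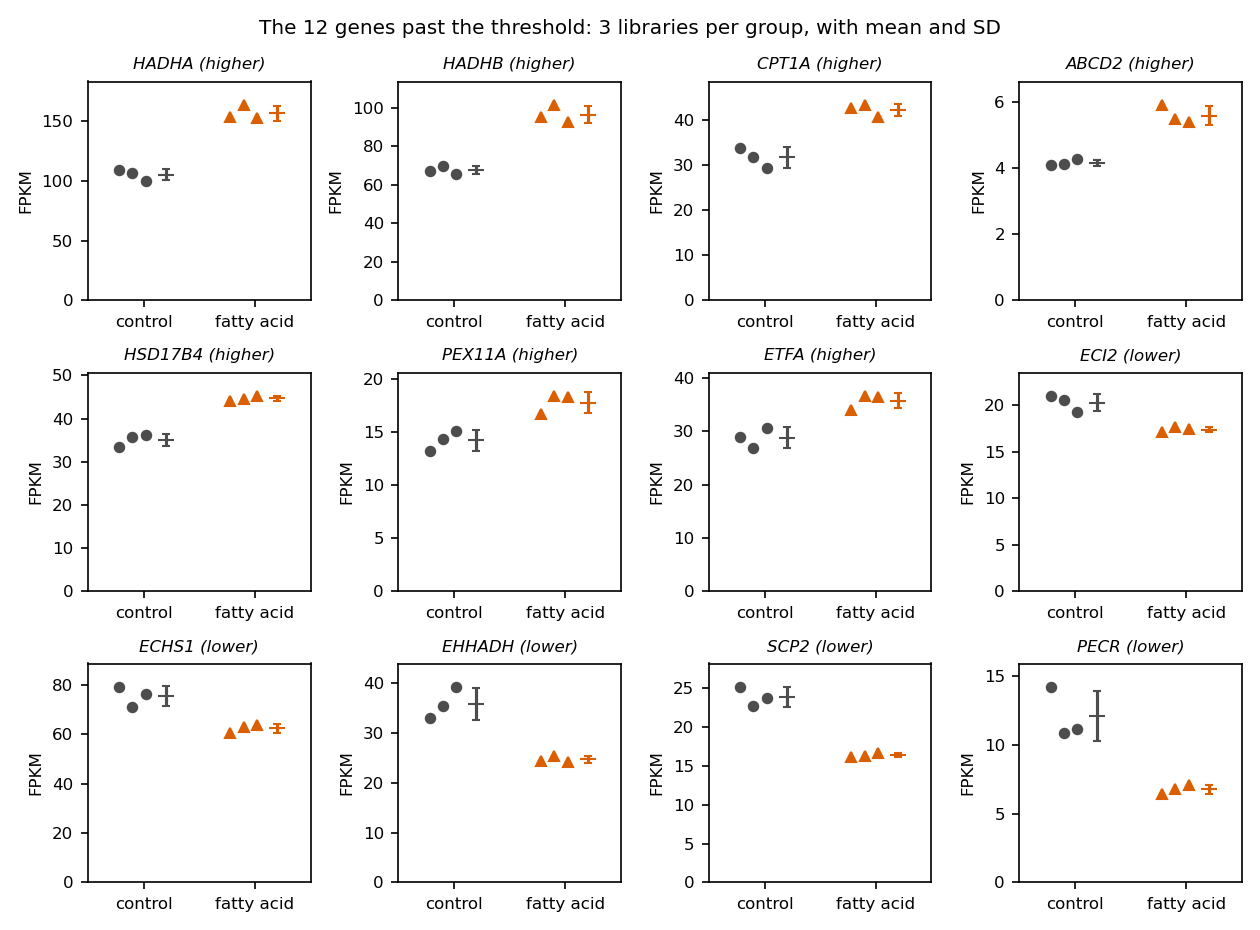
FPKM of the 12 genes past the threshold in 3 control (circles) and 3 fatty acid libraries (triangles), with mean and SD beside the points; every axis starts at 0. In each gene the groups do not overlap, and the fall of PECR from 12.1 to 6.76 FPKM is the largest change on the log2 scale, while HADHA, from 105 to 156 FPKM, has the largest difference in FPKM.

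Summed over the genes of a step, FPKM in the carnitine shuttle ran from 116.8 to 121.1 in the control and from 125.2 to 129.4 in the fatty acid libraries. The 14 genes of the spiral summed to 617 to 671 and 683 to 706 FPKM, and the 3 electron transfer genes to 62.5 to 67.3 and 69.9 to 73.5 FPKM. The 12 peroxisomal genes summed to 194 to 206 FPKM in the control and to 182 to 186 FPKM with fatty acid. In all 4 sums the groups did not overlap on the FPKM scale, whose total includes transcripts of the mitochondrial genome. Those took 12.23 to 14.96% of the reads in the control and 9.15 to 11.91% in the fatty acid libraries. The sums were not computed with nuclear genes as the total, so whether the groups separate on that scale was not tested. The higher sum of the spiral rested on HADHA and HADHB. Together these genes had 166 to 176 FPKM in the control and 245 to 265 FPKM in the fatty acid libraries. The other 12 genes of the spiral summed to 441 to 494 FPKM in the control and 423 to 461 FPKM in the fatty acid libraries, overlapping ranges with the lower mean in the fatty acid group. The higher sums of the shuttle and of electron transfer rested on CPT1A and on ETFA. CPT1A had 29.3 to 33.8 FPKM in the control and 40.6 to 43.2 FPKM with fatty acid. ETFA had 26.8 to 30.7 FPKM in the control and 34.1 to 36.6 FPKM with fatty acid. Among the other genes of these steps SLC25A20 lay higher in every fatty acid library, and CRAT, CROT and ETFB lay lower. The median log2 fold change of the spiral was -0.09 and that of the peroxisomal genes -0.12. All 34 genes together took 0.447 to 0.478% of the reads in the control and 0.482 to 0.493% in the fatty acid libraries. Like the sum of the spiral, the higher share with fatty acid rested on HADHA and HADHB. These shares too are of all assigned reads, with those of the mitochondrial genome included, and the share of nuclear reads was not computed.

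Of the other genes of the pathway, 1 passed the threshold. A list of 47 genes covered further carnitine and acyl-CoA enzymes, peroxisome biogenesis and the PPAR receptors with their partners and coregulators. Of these, 46 matched the table by name and 45 were tested, so that 2.22% were called, beside 12.9% of all genes tested. Their median control level was 6.11 FPKM, against 19.2 FPKM for the 34 members and 4.29 FPKM for all genes tested. Only PXMP2, a channel protein of the peroxisomal membrane, passed, falling from 12.6, 11.7 and 12.4 FPKM to 9.51, 7.96 and 9.0 FPKM (log2 fold change -0.45 ± 0.08, limma adjusted p = 0.0129). None rose in the limma test. At an unadjusted p below 0.05 there were 4 higher and 7 lower, and limma voom called 2 higher and 3 lower. The median log2 fold change of this list was 0.00, against 0.04 over all genes tested.

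The start regions were searched for the element that PPAR binds with RXR, 2 copies of AGGTCA with a spacer of 1 base, allowing at most 2 mismatches outside the spacer on either strand. RefSeq promoter windows of 300 bases were matched for 27 of the 34 genes, 34 windows in all. The 7 genes without a window, CRAT, DECR2, ETFDH, DECR1, ACAA1, EHHADH and ACAD11, were not searched. The windows of members held 1 match, in ACAA2 (chromosome 18, 76 bases before the start), shown because it is the only one:
ACAA2 match, 2 mismatches: AGGTGAAAGGGCA
That is 2.94% of the members' windows, beside 2.97% of all 35116 windows. ACAA2 is a gene whose level differed by less than the spread between libraries. The windows of HADHA, HADHB, CPT1A, ABCD2, HSD17B4, PEX11A and ETFA held none, which says only that these letters are not in these windows.

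**Figure D4:**
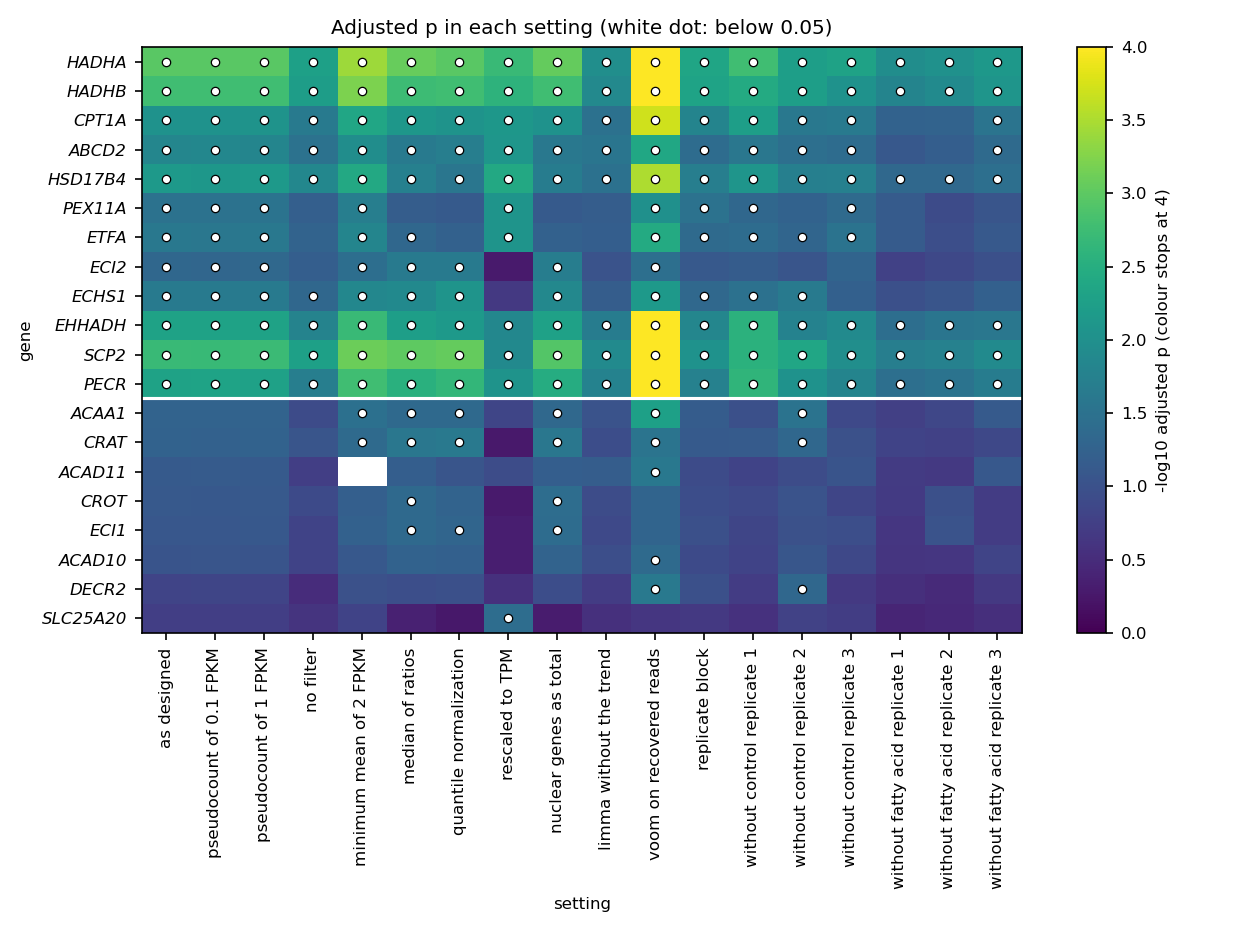
Adjusted p (colour, as -log10) of the 12 called genes (above the white line) and the 8 genes called in at least 1 alternative (below it) in each setting; a white dot marks a value below 0.05, and the blank cell is ACAD11, which lies under the minimum of 2 FPKM. HADHA, HADHB, HSD17B4, EHHADH, SCP2 and PECR carry a dot in every column.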

How the data were processed

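RNA-seq libraries made with an Illumina stranded mRNA kit of 6 HepaRG samples were used, per the labels' protocols. STAR 2.5.2, Subread 1.5.1 with featureCounts, and GRCh38 are listed per the submitters' processing notes. The annotation release, filters and strand setting are not given in the sources used here. The authors deposited FPKM values with gene models, 1 column per sample. FPKM times gene length came out as whole reads for 100% of the values fine enough to tell (tolerance 0.02 reads), which gave the depth. No pair of replicates agreed within sampling noise.

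Groups came from the titles. Genes whose mean reached 0.5 FPKM were tested on log2(FPKM + 0.5) with limma 3.58.1 (intensity trend, R 4.3.3) and Benjamini-Hochberg adjustment at 0.05; the code was tested on simulated data. Intervals are limma's at 95%. The 17 alternatives were pseudocounts of 0.1 and 1, no filter, a minimum of 2 FPKM, median-of-ratios, quantile, TPM and nuclear-gene scaling, no trend, limma voom on recovered reads without further scaling, the replicate block and each library left out. The members, gene lists, tests and alternatives were chosen with earlier results of these data known. Values are given by library for each called member and for the 2 most abundant of each step, and the called genes of the further list are named. ALB, KDR, LUM, CPT1B, the neighbouring genes, PLIN1, ACAA1, DECR2 and ETFB were given values after these had been seen. Python 3.11.15 and matplotlib 3.10.9 were used for tables and figures.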

Additional observations from a re-analysis of the deposited data

How the results depend on the processing

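Of the 12 members called, 6 were called in all 17 alternatives (HADHA, HADHB, HSD17B4, EHHADH, SCP2 and PECR), and no called member changed sign in any. Of the 22 others, 14 were called in no alternative. Members higher numbered 7 as designed and 3 to 7 when 1 library was left out, with 3 without fatty acid replicate 1 or 2. Members lower numbered 5, and 3 to 7 with 1 library left out, with 3 without control replicate 3 or any 1 fatty acid library. They numbered 9 with the median of ratios, 8 with quantile normalization, 3 after rescaling to TPM, 9 with nuclear genes as the total, 3 without the intensity trend and 10 with voom on recovered reads. Over all genes, 1205 were higher and 686 lower as designed, and 640 and 337 with no filter. The higher genes numbered 779 with the median of ratios, 758 with quantile normalization, 2615 after rescaling to TPM (408 lower), 710 with nuclear genes as the total, 642 without the trend and 1846 with voom (1153 lower). Left-out libraries gave 230 to 1105 higher and 232 to 677 lower genes, with the fewest without fatty acid replicate 1 (230 and 232) and 2 (239 and 247). With the share of higher calls at 63.7%, the median of ratios gave 48.8%, quantile normalization 49.5%, nuclear genes as the total 46% and TPM 86.5%. The cause of these shifts was not tested, nor was the part of the smaller number of samples or the larger number of genes tested.

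Log2 fold changes near 0 changed sign in 27 cases, all of members that were not called. With the median of ratios, quantile normalization and nuclear genes as the total, CPT2 gave -0.007, -0.006 and -0.019, ACADM -0.02, -0.032 and -0.032, and ACOX3 -0.031, -0.015 and -0.043. After rescaling to TPM, ACADVL gave 0.095, HADH 0.045, ACAA2 0.112, DECR1 0.051 and PHYH 0.093, and with voom ACOX3 gave -0.007. With 1 library left out, CPT2 ran from -0.023 to 0.071, ACADVL from -0.119 to 0.052, ACADL from -0.008 to 0.145, ACADM from -0.029 to 0.080, ACAA2 from -0.052 to 0.005 and ACOX3 from -0.024 to 0.063.

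With the replicate number as a block, 7 members were higher and 4 lower (ECI2 was lost, adjusted p = 0.0771), and 817 and 657 of all genes. Deviations from the group means of same-numbered libraries correlated at 0.012, 0.084 and 0.022 across genes, and those of differently numbered libraries at -0.094 to 0.073. The value for replicate 2 was the highest of all, but control replicate 1 correlated best with fatty acid replicate 3 (0.073). All these correlations were weak, so whether the numbers pair the samples cannot be told from them. The fold change of ACAD11 has no value with a minimum of 2 FPKM, which it does not reach. ACAD11 and ACADS, with as few as 52 and 58 reads in a library, are the members whose precision depth limits most.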

Other observations

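SCP2 starts 17 bases from ECHDC2, a gene for a mitochondrial protein with an enoyl-CoA hydratase domain that lies on the opposite strand of chromosome 1. ECHDC2 fell as well, from 6.497, 5.45 and 6.25 FPKM in control replicates 1, 2 and 3 to 3.61, 3.53 and 3.95 FPKM with fatty acid (log2 fold change -0.64 ± 0.09, limma adjusted p = 0.00519). The RefSeq window of SCP2 is shown for this neighbour, plus strand, with the 18 bases from the start of ECHDC2 to the start of SCP2 in the deposited gene models in capitals.
SCP2, plus strand, chr1:52927026-52927325: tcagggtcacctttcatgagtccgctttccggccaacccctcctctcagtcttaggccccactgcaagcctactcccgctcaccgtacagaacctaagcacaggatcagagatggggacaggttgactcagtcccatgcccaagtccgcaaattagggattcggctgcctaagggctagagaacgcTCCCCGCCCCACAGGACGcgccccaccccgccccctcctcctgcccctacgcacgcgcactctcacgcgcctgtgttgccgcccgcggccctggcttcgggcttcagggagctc
Of the 7 members with a tested gene that starts within 1000 bases on the opposite strand in the deposited gene models, SCP2 was called together with its neighbour and the other 6 were not. HADHA and HADHB, both called, are not counted here, because their starts lie farther apart than that in the deposited gene models. The neighbour of CROT, the noncoding gene TP53TG1, fell too (log2 fold change -0.28 ± 0.07, limma adjusted p = 0.0419), while CROT itself missed the threshold (0.0769). The neighbours of CRAT, ACAD10, EHHADH, HACL1 and ETFDH did not pass, with limma adjusted p of 0.868, 0.0952, 0.711, 0.101 and 0.163. These neighbours were examined after the values of the members had been seen.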
